A study of Arabidopsis thaliana with 24 samples.

Results

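Seedlings of Arabidopsis thaliana carrying ALC::TOC1 were compared between constant light (LL) and light-dark cycles (LD) without induction of the transgene. Under LL, GI, HYH and some heat shock, co-chaperone and glucosyltransferase transcripts were lower, while some wall-loosening, auxin-conjugating, cell division and ATG8 autophagy transcripts were higher. The comparison rests on 6 of the 24 arrays of the study, chosen by their labels: 3 mock-treated ALC::TOC1 arrays in LL and 3 mock-treated ALC::TOC1 arrays in LD. ALC::TOC1 is a Col-0 line in which ethanol is meant to switch on TOC1, a pseudo-response regulator that represses morning genes of the circadian clock. All seedlings were grown for 12 days in cycles of 12 h light and 12 h dark and then for 1 more day in LL or in LD, and were harvested at an age of 13 days at ZT1. ZT1 is 1 h after lights-on in LD, and in LL 1 h after the time at which the lights would have come on. Every group, the wild type included, was submerged for 3 h with the proteasome inhibitor MG132, given as 20 mM in the labels, so no group shows transcript levels without that drug. The mock groups received no ethanol, and the induced groups received 2.5% ethanol. A further 3 LL and 3 LD mock arrays of wild-type Col-0, and 3 LL and 3 LD ethanol arrays of ALC::TOC1, are used below for comparison. The labels do not say whether the line is 1 transformant, or whether the replicates were grown separately, so p-values measure the spread between these samples only.

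The circadian clock of Arabidopsis is a network of transcriptional repressors that act in turn from dawn to night, and light resets it each morning. Seedlings moved to LL keep a rhythm for some days but get no dark period and no dawn, so at ZT1 the LD seedlings had just passed a dark-to-light transition and the LL seedlings had not. Dark periods also set starch use, and the light transition acts on photoreceptor pathways that control growth and pigment synthesis. None of TOC1 itself, the morning genes LHY and CCA1, the evening genes ELF4 and LUX, or PRR9, PRR7 and PRR5 could be read from a probe set with a single gene name, and they were not analysed here, so the state of the transgene was not checked.

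Transcripts were measured on Affymetrix ATH1 arrays, and levels are log2 RMA values per probe set, on which a difference of 1 is a 2-fold difference. The 6 arrays had medians between 5.329 and 5.397. Pearson correlation over all probe sets was 0.9946 to 0.9955 among the LL arrays, 0.9942 to 0.9968 among the LD arrays and 0.9735 to 0.9835 between the groups. Leaf transcripts were bright in both groups: RCA, which encodes Rubisco activase, stood at 13.07, 13.04 and 13.13 in the LL arrays and at 13.18, 13.02 and 13.19 in the LD arrays. The root-enriched beta-glucosidase PYK10 was also bright, at 11.58, 11.74 and 11.8 in LL and 11.39, 10.78 and 11.41 in LD. The 3' minus 5' difference of GAPDH, a measure of RNA degradation, was 0.162 log2 higher in LL arrays, that of actin differed by -0.475 and that of ubiquitin 0.0654 higher (two-sided exact permutation p = 0.3, 0.3 and 0.2, each with an adjusted p of 0.36 over 6 tests, the smallest p possible with 3 arrays a side being 0.1). In seedlings, fewer cells of a type and less RNA per cell cannot be told apart.

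Of 22746 probe sets, 5489 (24.1%) passed a Benjamini-Hochberg adjusted p of 0.05 in limma, the threshold used throughout. Under LL, 2904 (12.8%) were higher and 2585 (11.4%) were lower. Changes of at least 2-fold were more often falls: 478 probe sets (2.1%) were lower and 334 (1.47%) were higher. In wild-type mock seedlings it was the reverse, with 437 lower and 666 higher, while ethanol-treated ALC::TOC1 had 482 lower and 235 higher. The 3 ALC::TOC1 mock LL arrays did not overlap the 3 LD arrays in 9860 probe sets (43.3%), and 5360 of the called probe sets were of this kind. A single gene name was given for 2886 called probe sets (52.6% of them), and many of those names were locus identifiers. With 1 probe set per named gene, 11.6% of 13356 genes were higher and 9.85% were lower, and these shares are the background for each gene group below.

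The 12 largest falls among named genes with non-overlapping arrays were led by members of the heat shock list. AT5G51440, on that list, had levels of 5.11, 5.72 and 5.35 in the LL arrays, against 8.75, 9.37 and 8.78 in the LD arrays. All LL arrays were at least 3 log2 units below every LD array, and the difference was -3.57 ± 0.26 (SE, adjusted p = 7.08e-09), or 11.9-fold. AT5G48570, listed in RefSeq as FKBP65 or ROF2 and encoding a peptidyl-prolyl isomerase, had levels of 4.45, 4.55 and 4.55 in LL, against 8.1, 8.03 and 7.68 in LD. Its difference was -3.42 ± 0.45 (SE, adjusted p = 1.46e-05). Hop3, a co-chaperone that links HSP70 to HSP90, stood at 5.88, 6.23 and 5.87 in LL and at 8.8, 9.19 and 8.82 in LD, a fall of 7.7-fold (log2 difference -2.94 ± 0.23 SE, adjusted p = 1.96e-08). That the LL and LD arrays do not overlap in these 3 genes follows from how the set was chosen.

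The other falls in this set had locus identifiers as gene names, as did AT5G51440 and AT5G48570. AT5G15950 had the smallest adjusted p among them, 2.35e-11: its levels were 5.71, 6.18 and 5.95 in LL, against 8.87, 8.95 and 8.92 in LD. AT2G43620 was the brightest of the 12, at a mean of 9.3 ± 0.15 in LL and 12.25 ± 0.25 in LD (SD, n = 3 each), a difference of -2.95 ± 0.48 (SE, adjusted p = 0.000128). AT4G27657, AT5G16960, AT1G07590 and AT2G20560 differed by -3.39, -3.37, -3.28 and -3.15 log2. AT1G54050 and AT2G17740 differed by -2.84 and -2.77. AT3G15310, a pseudogene in RefSeq, averaged 3.01 ± 0.13 in LL and 6.06 ± 0.11 in LD (SD, n = 3 each), and whether its LL level lies above background was not tested.

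The 12 largest rises chosen in the same way spanned 1.74 to 2.69 log2, each smaller than the smallest of the 12 falls. AT1G09500 had levels of 7.37, 7.17 and 6.86 in the LL arrays, against 4.52, 4.45 and 4.36 in the LD arrays, a rise of 2.69 ± 0.32 (SE, adjusted p = 4.07e-06), or 6.46-fold. CCL, a clock-controlled gene with a short-lived transcript, had levels of 8.01, 7.93 and 8.49 in LL, against 5.9, 5.48 and 6.13 in LD. Its difference was 2.31 ± 0.18 (SE, adjusted p = 2.05e-08). SCPL34, a serine carboxypeptidase-like gene, averaged 7.3 ± 0.12 in LL and 5.37 ± 0.1 in LD (SD, n = 3 each), a difference of 1.92 (adjusted p = 1.59e-07).

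AT1G73120 and AT3G20340 rose by 2.26 and 2.25 log2, AT1G62510 by 2.05 and AT1G25400 by 1.75. AT1G73120 averaged 3.54 in LD, and whether that level lies above background was not tested. AT1G15010 had levels of 11.07, 11.35 and 11.06 in LL, against 9.48, 8.42 and 9.48 in LD, and its rise of 2.04 became 1.68 without the second LD array (adjusted p = 6.64e-05). AT4G29690, AT5G23840 and AT5G17820 rose by 1.96, 1.79 and 1.74, and by 1.59, 1.42 and 1.31 without that array, with adjusted p at most 0.00579. AT4G11190 rose by 1.88 ± 0.42 (SE, adjusted p = 0.00223).

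**Figure D1:**
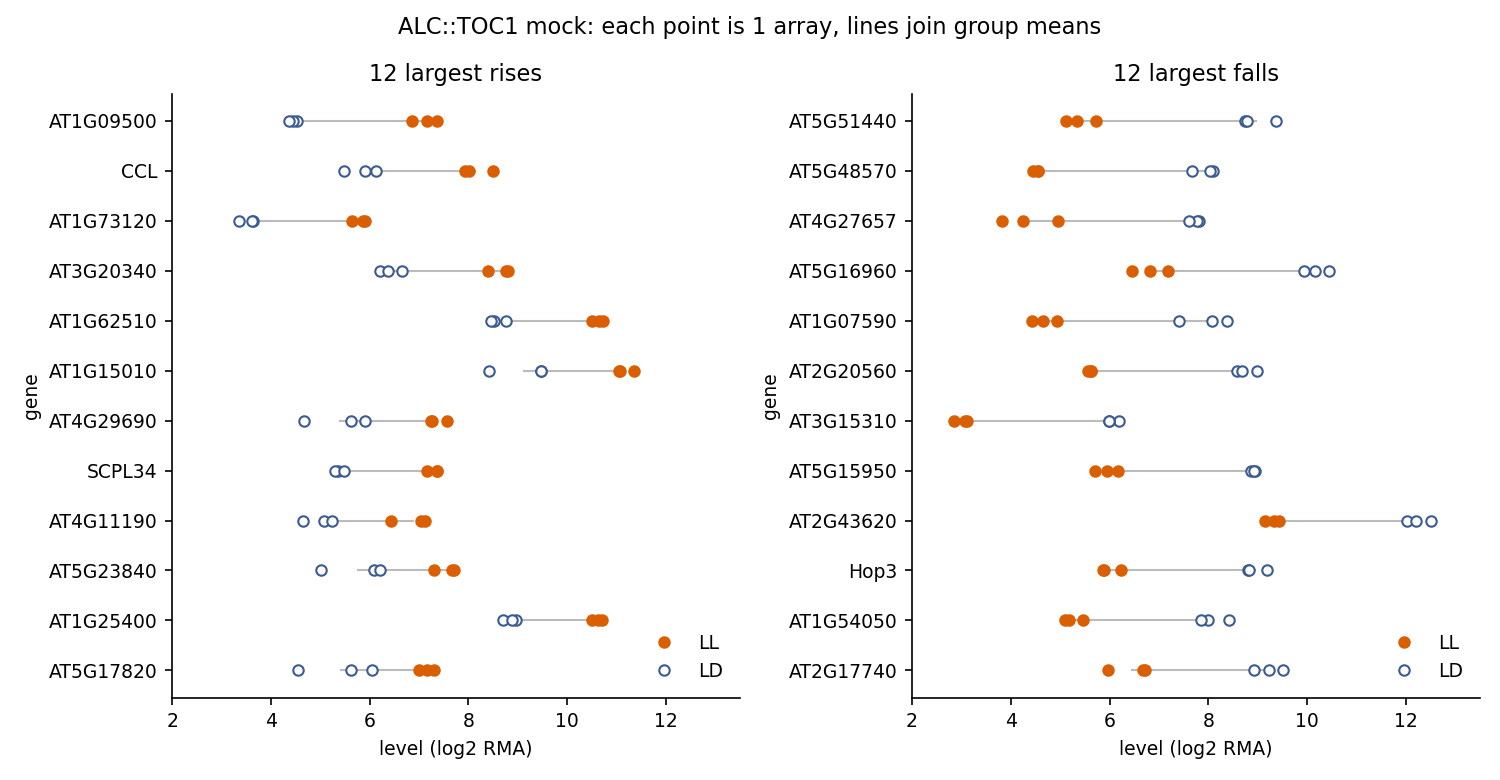
Levels (log2 RMA, horizontal axis) of the 12 largest rises (left) and the 12 largest falls (right) among named genes in mock-treated ALC::TOC1 seedlings. Filled points are the 3 LL arrays, open points the 3 LD arrays, and grey lines join the group means.

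Among clock-associated genes, GI fell and the locus AT4G33980 rose, and most of the others measured did not pass the test. GI, whose protein links the clock to light input and flowering and whose transcript peaks late in the day, had levels of 5.15, 5.32 and 5.08 in the LL arrays, against 6.38, 6.6 and 6.62 in the LD arrays. All LL arrays lay below all LD arrays, and the difference was -1.36 ± 0.19 (SE, adjusted p = 3.09e-05), or 2.56-fold. AT4G33980, on the clock list, had levels of 6.62, 6.63 and 6 in LL, against 5.09, 4.77 and 5.04 in LD, a rise of 1.45 ± 0.18 (SE, adjusted p = 8.13e-06). TIC, a nuclear clock regulator, was lower by a small and even amount, at 8.79 ± 0.01 in LL and 9.16 ± 0.03 in LD (SD, n = 3 each; adjusted p = 0.00602). COR27, a cold-regulated repressor within the clock, averaged 6.32 ± 0.31 in LL and 7.03 ± 0.13 in LD (SD, n = 3 each), a difference of -0.71 that did not pass (adjusted p = 0.102). It passed with array weights (adjusted p = 0.0386), in the fit of the 6 arrays alone (0.00455) and in that fit with a replicate block (0.00164). FIO1, an RNA methyltransferase that affects period length, XCT, a clock and splicing factor, and AT5G52660 differed by 0.22, 0.16 and 0.15 and did not pass. In all, 1 of the 7 measured clock genes was higher and 2 were lower.

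HYH and UGT78D2, both connected to light signalling and its pigments, were lower in LL. HYH, a bZIP factor and close relative of HY5 that acts in seedling light responses, had levels of 8.49, 8.46 and 8.43 in the LL arrays, against 9.59, 9.73 and 9.4 in the LD arrays. The LL arrays were nearly identical and all lay below LD, and the difference was -1.12 ± 0.11 (SE, adjusted p = 3.17e-07). UGT78D2, which glucosylates flavonols and anthocyanidins, had levels of 7.08, 7.29 and 7.38 in LL, against 9, 9.42 and 8.85 in LD, a difference of -1.84 ± 0.13 (SE, adjusted p = 4.89e-09). It was the 1 flavonoid gene of the 10 measured that fell. Chalcone isomerase-like CHIL rose by 0.67 ± 0.16 (SE, adjusted p = 0.00357), as did 1 further flavonoid gene, DFR, for dihydroflavonol reductase (adjusted p = 0.034). DFR lost its call when any 1 of the 6 arrays was left out, with adjusted p between 0.0588 and 0.104.

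**Figure D2:**
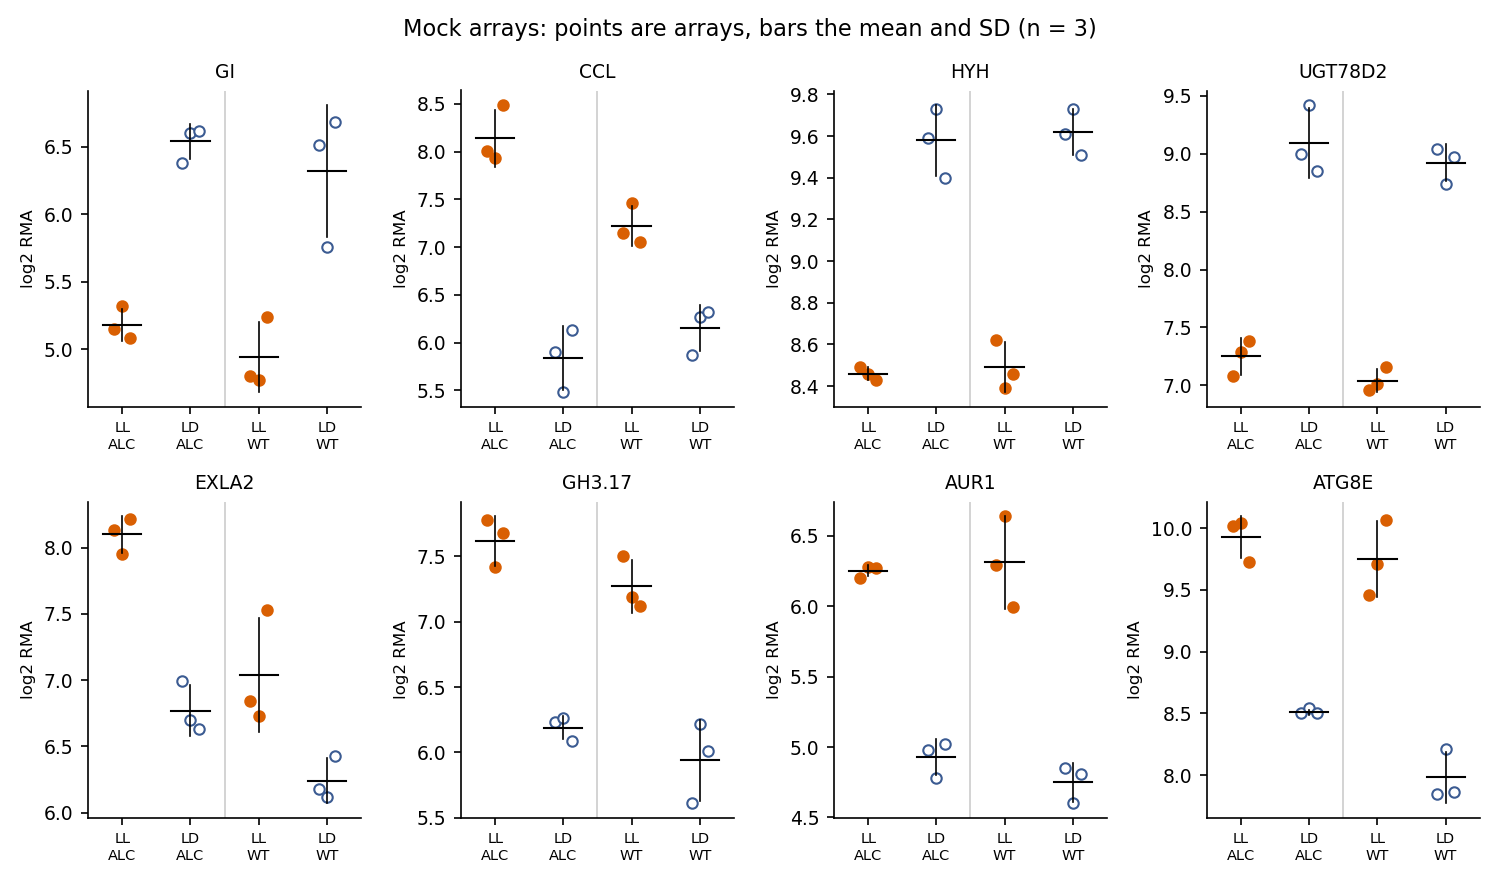
Levels (log2 RMA) of 8 genes in the mock arrays, in the order ALC::TOC1 LL, ALC::TOC1 LD, wild-type LL and wild-type LD; bars are the mean and SD of 3 arrays. In each gene the 3 ALC::TOC1 LL arrays lie wholly above or wholly below the 3 ALC::TOC1 LD arrays. The same holds for 5360 of the 5489 called probe sets. The wild type differs in the same direction in each of the 8 genes.

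Part of the wall-loosening genes rose. Of 18 measured genes of expansins and xyloglucan-modifying enzymes, which let the cell wall extend, 7 were higher in LL and 0 lower, with a median difference of 0.34 over the list against 0.05 over all named genes. EXLA2, an expansin-like gene, had levels of 8.13, 7.95 and 8.22 in LL, against 6.99, 6.7 and 6.63 in LD, a rise of 1.33 ± 0.17 (SE, adjusted p = 1.19e-05). Its close relative EXLA1 was brighter, at 10.12 ± 0.1 in LL and 8.85 ± 0.5 in LD (SD, n = 3 each), a rise of 1.27 (adjusted p = 0.000277). XTH16, a xyloglucan endotransglucosylase, rose by 1.29 ± 0.24 (SE, adjusted p = 0.000562). The beta-expansin EXPB3 had levels of 6.06, 6.79 and 6.71 in LL, against 5.07, 4.23 and 5.34 in LD, a rise of 1.64 ± 0.33 (SE, adjusted p = 0.00111). EXPA18 rose by 0.77 ± 0.13 (SE, adjusted p = 0.000252) at dim levels of 4.36 ± 0.1 in LL and 3.59 ± 0.09 in LD (SD, n = 3 each). Leaving out any 1 of the 6 arrays gave 6 to 8 rises, and 3 passed among probe sets brighter than the median. In the fits of the 6 arrays alone, with and without a replicate block, 8 were higher and 1 was lower. On a wider list of 27 genes named as expansins or xyloglucan-modifying enzymes, 8 were higher and 0 lower.

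Auxin-related genes included both rises and 1 fall. GH3.17, an enzyme that conjugates auxin to glutamate, had levels of 7.78, 7.42 and 7.68 in LL, against 6.23, 6.26 and 6.09 in LD, a rise of 1.43 ± 0.19 (SE, adjusted p = 1.29e-05). GH3.3, an auxin-inducible enzyme of the same family, rose by 1.48 ± 0.38 (SE, adjusted p = 0.00634), and WES1, another GH3 enzyme, rose by 0.48 ± 0.12 (SE, adjusted p = 0.00612). HAT2, an auxin-inducible homeodomain factor, rose by 1.29 ± 0.22 (SE, adjusted p = 0.000221). IAA18, a repressor of auxin response, fell by 0.55 on the log2 scale (adjusted p = 0.00269). On the auxin list, 3 of 9 measured genes were higher and 1 was lower, and on a wider list by gene name 4 of 19 were higher and 1 was lower.

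On a list of histone, replication and mitosis genes, 10 of 21 measured genes were higher in LL, 1 was lower and 10 did not pass, with a median of 0.43. AUR1, the Aurora kinase of dividing cells, had levels of 6.2, 6.28 and 6.27 in LL, against 4.98, 4.78 and 5.02 in LD, a rise of 1.33 ± 0.15 (SE, adjusted p = 2.68e-06). AUR2 rose by 1 ± 0.18 (SE, adjusted p = 0.000291), and AUR3, of the same kinase family, differed by 0.16 and did not pass (adjusted p = 0.405). The replication helicase subunit PRL, on a separate cell cycle list and not on this one, rose by 0.88 ± 0.18 (SE, adjusted p = 0.00138). Topoisomerase II TOPII rose by 1.1 ± 0.23 (SE, adjusted p = 0.00151) and the spindle checkpoint gene BUB3.1 by 0.64 ± 0.15 (SE, adjusted p = 0.00292). HBT, a subunit of the anaphase-promoting complex, was the 1 gene of the list that fell, by 0.43 on the log2 scale (adjusted p = 0.00207). Leaving out any 1 array gave 7 to 10 rises on this list, with a second fall without LL array 3, and 5 rises were left among probe sets brighter than the median.

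Some tissue markers were also higher, and they share genes with these groups. All 4 measured root markers had higher means in LL, and their mean level was 6.43 to 6.63 per LL array, against 5.78 to 6.14 per LD array. Of these, 2 passed the test, EXPA7, a root hair expansin (0.62 ± 0.15 SE, adjusted p = 0.00403), and PYK10 (0.51 ± 0.18 SE, adjusted p = 0.0462). PYK10 lost its call without any 1 of the LL arrays or without LD array 2 (adjusted p 0.0571 to 0.279). It also lost its call with repeated quantile normalisation (adjusted p = 0.0677) and with the GAPDH 3' minus 5' difference as a covariate (adjusted p = 0.0758). In either of these fits 1 of the 4 markers was higher, and with array weights 3 were. AT5G66390 and AT5G48940 differed by 0.68 and 0.39 and did not pass (adjusted p = 0.114 and 0.21). In the fit of the 6 arrays alone both passed (adjusted p = 0.00825 and 0.015), so that all 4 markers were higher there, and likewise with a replicate block. Cell cycle markers, of which 3 of 5 passed and all 3 were higher, had means of 4.84 to 5.06 per LL array, against 4.01 to 4.43 per LD array. Of those 3, AUR1 and AUR2 are also on the mitosis list above, and the root marker EXPA7 is itself an expansin. These markers are therefore not separate evidence on tissue makeup. The part of root tissue or of dividing cells in the rise of the wall, auxin and mitosis genes was not tested.

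Carbon-related genes moved in both directions. MCCA, a subunit of methylcrotonyl-CoA carboxylase, which acts in leucine breakdown and is known for rising in the dark, was higher in LL, at 10.59, 10.62 and 10.62 against 9.74, 9.45 and 9.92 in LD (0.9 ± 0.2 SE, adjusted p = 0.00235). On the dark and starvation list, 3 of 7 genes were higher, and the count was 2 without LL array 1, and 1 without LL array 2 or 3 or without LD array 1 or 2. PWD, an enzyme that phosphorylates starch for its breakdown, fell by 0.55 on the log2 scale (adjusted p = 0.000312). Among sugar transporters of the SWEET family, SWEET17, a vacuolar fructose carrier, rose by 0.58 (adjusted p = 0.00122), while SWEET4 and the phloem-loading sucrose carrier SWEET11 fell by 0.91 and 0.55 on the log2 scale (adjusted p = 0.00256 and 0.00577). ATSPS4F, a sucrose phosphate synthase, rose by 0.84 ± 0.23 (SE, adjusted p = 0.00913). The sugar and starch list held 3 higher and 3 lower genes of 12, and the SWEET family 3 higher and 2 lower of 14.

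Nuclear photosynthesis genes were bright and near equal in both groups, with means of 11.08 to 11.29 per LL array, against 10.72 to 11.08 per LD array. Of 11 measured, 3 passed as higher, none of them by more than 0.47 log2. That count was 0 without LL array 1 or 3 or LD array 2, 1 without LD array 1 and 2 without LL array 2. CHLI2, a subunit of the magnesium chelatase of chlorophyll synthesis, was the 1 of 9 pigment genes that passed, with a rise of 0.77 ± 0.16 (SE, adjusted p = 0.00142). Of 69 plastid-encoded genes, 5 were lower and 0 were higher, with a median of -0.17. Both shares lie below those over all named genes, 9.85% lower and 11.6% higher. The count of lower plastid genes was 15 without LL array 1, 3 without any 1 of the LD arrays, and 2 without LL array 2 or 3. Without LL array 3, 2 plastid genes were higher. The plastid ATP synthase subunit atpI had levels of 8.24, 7.35 and 7.51 in LL, against 8.76, 8.37 and 8.63 in LD (-0.89 ± 0.2 SE, adjusted p = 0.00266). Of 15 mitochondrion-encoded genes, 4 were lower, and that count was 1 without LL array 3 and 2 without LD array 1 or 2.

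The heat shock list held the 2 deepest falls of the named genes. Of 9 measured heat shock and unfolded-protein genes, 4 were lower and 0 higher in limma, the median was -0.79, and all 9 differences lay between -3.57 and -0.03. The mean of the list was 5.65 to 5.99 per LL array, against 7.12 to 7.18 per LD array. Beside AT5G51440 and AT5G48570, AT2G29500 fell, with levels of 5.05, 5.94 and 5.49 in LL, against 7.55, 7.27 and 7.47 in LD (-1.94 ± 0.41 SE, adjusted p = 0.00158). BOB1, a NudC-domain chaperone needed for heat tolerance and development, also fell, with 6.79 ± 0.02 in LL and 7.59 ± 0.08 in LD (SD, n = 3 each; adjusted p = 0.00117). AT1G53540 differed by -1.12 and did not pass (adjusted p = 0.0541). It passed with array weights (0.0109), among brighter probe sets (0.0397), without LL array 2 (0.0424) and in the fit of the 6 arrays alone, without and with a replicate block (0.0035 and 0.00623). The count of lower genes on the list was 6 with array weights and 7 in both fits of the 6 arrays alone. Genes of quality control in the endoplasmic reticulum moved less: 1 of 15 was higher (0 without LD array 3, 2 without LL array 2 or 3) and 3 were lower, among them BZIP17, a stress-activated transcription factor (-0.62 ± 0.09 SE, adjusted p = 7.02e-05), and PDIL5-1, a disulfide isomerase (-0.59 ± 0.11 SE, adjusted p = 0.000532).

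Among detoxification and redox genes, more calls were falls than rises, and most members did not pass. Of 47 measured UDP-glycosyltransferases, 12 were lower and 3 were higher, with 1 higher when fitted without LD array 2, and the median difference was 0.06. UGT73B5 had levels of 7.59, 7.59 and 7.3 in LL, against 9.25, 9.18 and 9.43 in LD, a difference of -1.79 ± 0.22 (SE, adjusted p = 5.22e-06). The related UGT73C1, UGT73B1 and UGT73B4 differed by -1.28, -1.27 and -1.02 (adjusted p at most 0.00288). UGT71C3 went the other way, with a rise of 0.91 ± 0.18 (SE, adjusted p = 0.00078). On the glutathione and detoxification list, 5 of 12 genes were lower, led by the glutaredoxin GRX480, with 5.28, 4.97 and 5.25 in LL, against 6.63, 6.58 and 7.12 in LD (-1.61 ± 0.28 SE, adjusted p = 0.000237), and AT2G21640 (-1.52 ± 0.28 SE, adjusted p = 0.000473). The 1 higher gene of that list, GSTU26, had levels of 8.23, 7.97 and 7.76 in LL, against 7.02, 5.24 and 6.58 in LD, and lost its call without LD array 2 (adjusted p = 0.072). By gene name, 2 of 14 glutathione transferases were higher and 3 were lower. The count of higher ones was 0 without LD array 2 and 1 without LD array 1 or any 1 of the LL arrays. Of 19 CYP71B cytochrome P450 genes, 4 were lower, and CYP71B23 fell most, with 4.72, 4.59 and 4.9 in LL against 6.87, 7.76 and 7.01 in LD (-2.47 ± 0.28 SE, adjusted p = 2.2e-06). With only probe sets brighter than the median kept, 0 of the CYP71B genes passed in limma.

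Of 9 autophagy genes of the ATG8 family, whose proteins coat the autophagosome membrane, 3 rose and 1 fell. The fall did not pass without LL array 3, LD array 2 or LD array 3. ATG8E had levels of 10.02, 10.04 and 9.73 in LL, against 8.5, 8.54 and 8.5 in LD, a rise of 1.42 ± 0.17 (SE, adjusted p = 5.16e-06). ATG8H and ATG8F rose by 0.98 and 0.86 (adjusted p = 5.03e-05 and 5.3e-05). In all 3 genes the LL arrays lay above the LD arrays, and 5360 of the 5489 called probe sets likewise had non-overlapping arrays. On the proteasome and autophagy list 3 of 15 were higher and 2 were lower. The count of lower ones was 1 without LL array 1 and 0 without LL array 3, LD array 2 or LD array 3. Of 20 beta-glucosidases, 6 were higher and 1 was lower, and 0 were lower without LL array 1, LL array 2 or any 1 of the LD arrays, with BGLU25 up by 0.85 and BGLU24 by 0.82 (adjusted p = 0.00179 and 0.00163).

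Calcium-binding and rapid stress genes split. CML23, a calmodulin-like calcium sensor, had levels of 4.24, 4.59 and 4.3 in LL, against 6.19, 6.47 and 5.66 in LD, a difference of -1.73 ± 0.24 (SE, adjusted p = 2.12e-05). CML41, of the same family, fell by 1.16 on the log2 scale (adjusted p = 2.67e-05), while CML38 rose by 1.05 ± 0.28 (SE, adjusted p = 0.00796) and the defence transcription factor WRKY22 rose by 1.13 ± 0.24 (SE, adjusted p = 0.00174). The list held 2 higher and 4 lower genes of 13, and 2 and 2 without LD array 2. By gene name, 1 of 7 calmodulin-like genes was higher and 2 were lower. Among 4 cold and dehydration genes, 2 were higher, of which 1 passed without LL array 2 or LD array 2, and 1 was lower. The dehydrin LTI30 rose by 0.8 ± 0.1 (SE, adjusted p = 1.31e-05). The chloroplast-protecting COR15A had levels of 7.9, 8.64 and 8.37 in LL, against 9.71, 8.93 and 9.86 in LD (-1.2 ± 0.41 SE, adjusted p = 0.0392), and lost its call without array 1 or 3 of either group (adjusted p 0.0792 to 0.142). AT1G04770, on the nitrogen and sulfur list, fell by 1.64 on the log2 scale (adjusted p = 6.43e-06), and SIR, the sulfite reductase, rose by 0.58 (adjusted p = 0.00174). RR16, a cytokinin response regulator, was the 1 of 6 such genes that passed (-0.96 ± 0.14 SE, adjusted p = 3.16e-05), at dim means of 3 in LL and 3.96 in LD.

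The remaining lists held few calls. Of 12 ribosome biogenesis genes, 1 was higher and 2 were lower. Of these, 0 were lower without LL array 1, LL array 2 or LD array 2, and 1 without LL array 3, LD array 1 or LD array 3, while 2 were higher without LL array 1 or 2. Of 29 serine carboxypeptidase-like genes, 3 were higher and 1 was lower, and 0 were lower without LL array 1, LL array 3, LD array 1 or LD array 2. Of 15 tetraspanins, 1 was higher and 1 was lower, and 0 were lower without any 1 array other than LL array 3. The lower one, TET3, lost its call in all 6 such fits. Of 9 plant U-box ligases, 2 were lower, and that count was 0 without LL array 2, LD array 1 or LD array 2 and 1 without LL array 1 or 3. On the nitrogen and sulfur list, 1 of 5 genes was higher and 1 was lower. None of 3 glucosinolate genes passed, nor did the 1 measured gene each of the early light and the jasmonate list, and of the 2 measured light signalling genes HYH was the 1 called.

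**Figure D3:**
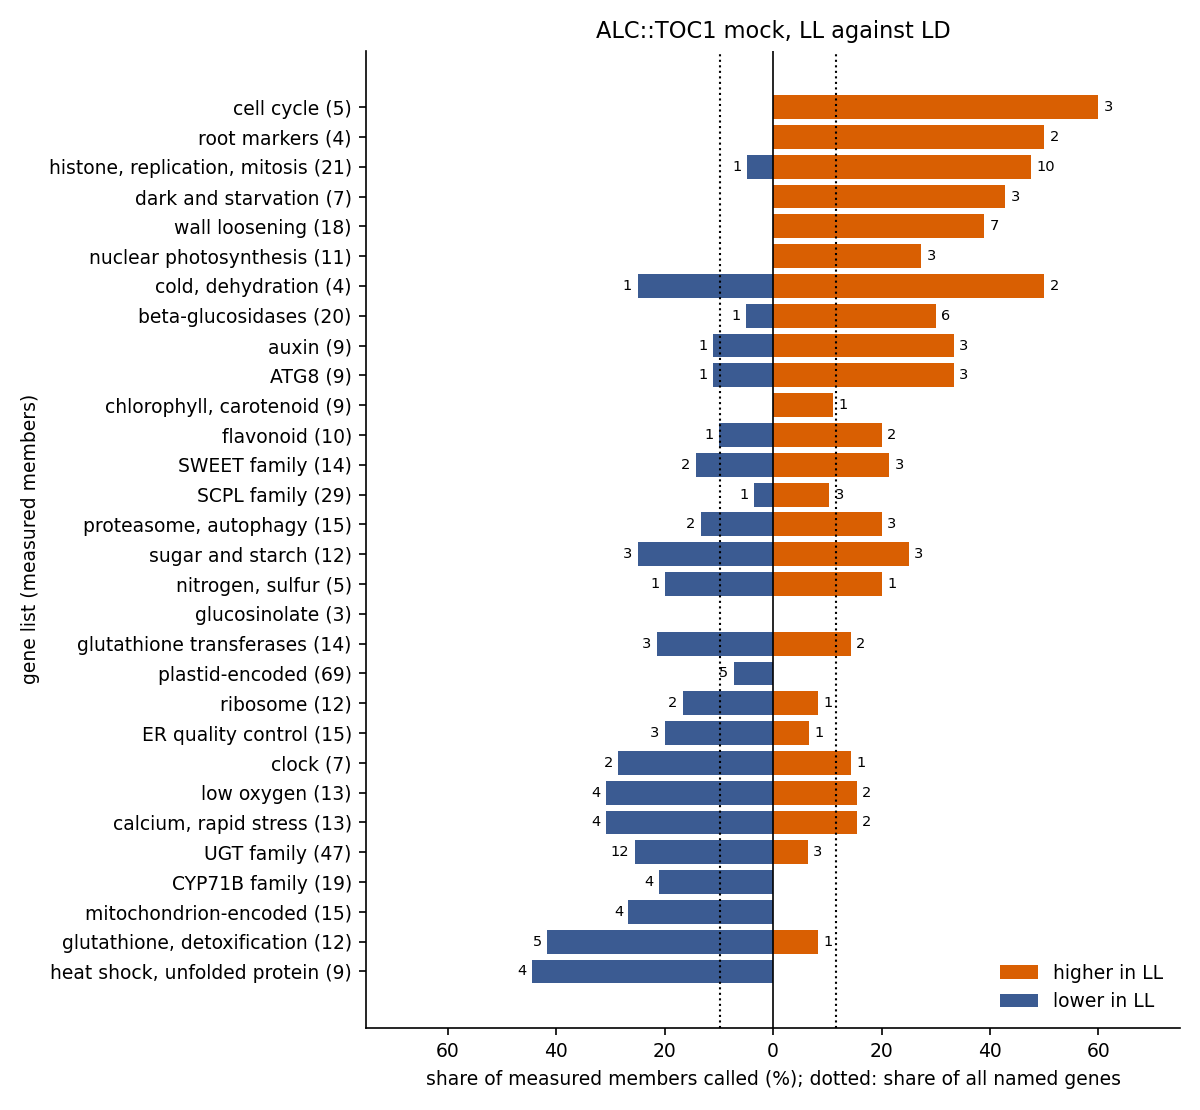
Share of measured members of each gene list called higher (right, orange) or lower (left, blue) in LL than in LD in mock-treated ALC::TOC1 seedlings, with the count of called members at each bar and the number measured in brackets. Dotted lines mark the shares over all named genes, 11.6% higher and 9.85% lower; lists share some members.

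The light difference of the uninduced line was set beside those measured on other arrays, in wild-type mock seedlings, where 6294 probe sets passed (27.7%), and in ethanol-treated ALC::TOC1 seedlings, where 4991 passed (21.9%). Over all probe sets, the ALC::TOC1 mock difference correlated with the wild-type difference at r = 0.731 (rho = 0.665) and with the ALC::TOC1 ethanol difference at r = 0.745 (rho = 0.682). These are correlations across probe sets, which are not independent. Of the 2904 probe sets higher in ALC::TOC1 mock, 1637 were also higher in wild type (56.4% of the ALC::TOC1 set and 54.0% of the wild-type set, where 13.3% of all probe sets were higher in wild type). Of the 2585 lower ones, 1724 were also lower in wild type (66.7% and 52.8%, where 14.4% of all were lower). Calls in opposite directions were rare, with 7 of the higher and 14 of the lower ones. In ethanol-treated ALC::TOC1, 1457 of the higher ones (50.2%) and 1474 of the lower ones (57.0%) were called in the same direction, where 11.2% and 10.7% of all probe sets were called higher and lower.

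The 24 genes with the largest changes all kept their sign and passed the test in wild type, at 0.92 to 2.92 log2 for the rises and -3.4 to -1.68 for the falls. In ethanol-treated ALC::TOC1 all kept their sign, and 10 of the 12 rises and 11 of the 12 falls passed. GI differed by -1.38 in wild type and by -1.03 in ethanol-treated ALC::TOC1, HYH by -1.13 in wild type, and UGT78D2 by -1.87 and -1.42. AT5G51440, AT5G48570 and Hop3 differed by -2.82, -2.17 and -2.09 in wild type and by -4.69, -5.32 and -3.65 in ethanol-treated ALC::TOC1. EXLA2, AUR1 and ATG8E rose by 0.79, 1.55 and 1.77 in wild type. The interaction, which is the ALC::TOC1 light difference less the wild-type one, both under mock, did not pass in any of these 9 genes.

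**Figure D4:**
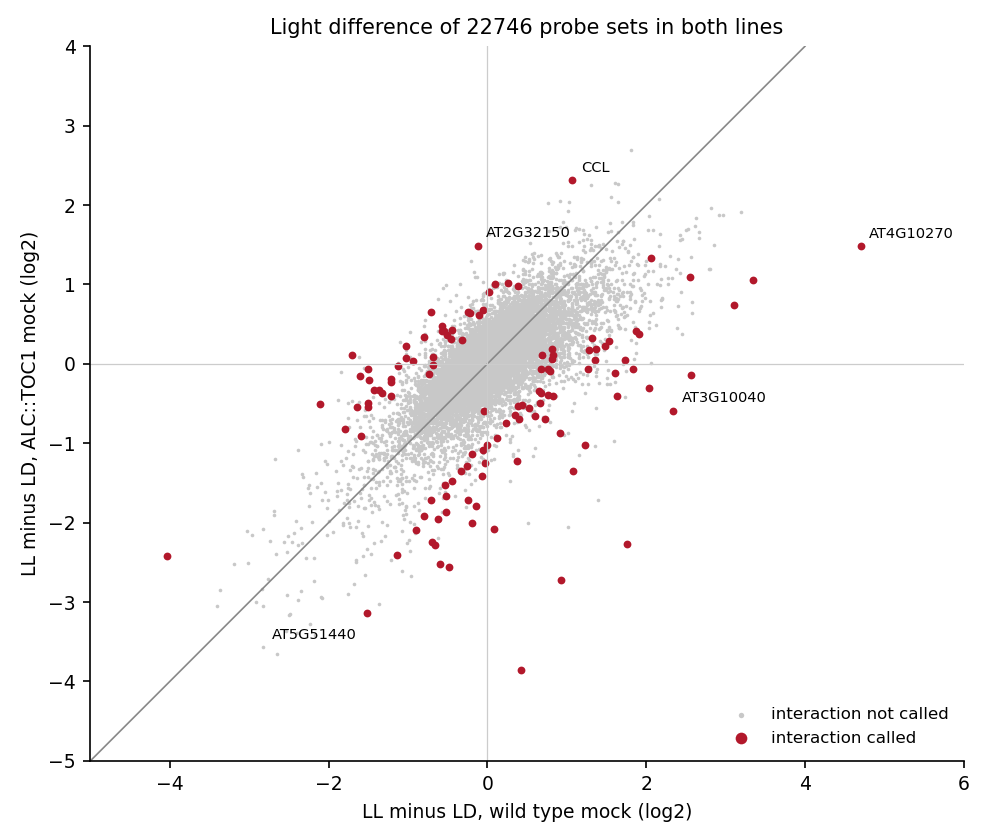
Light difference (LL minus LD, log2) of every probe set in ALC::TOC1 mock (vertical) and wild-type mock (horizontal) seedlings. Grey points did not pass the interaction test, red points are the 118 probe sets that did, and the line marks equal differences.

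The interaction passed for 118 probe sets (0.519%), 43 positive (0.189%) and 75 negative (0.33%), while 3164 (13.9%) had an unadjusted p under 0.05. Of the 75 negative ones, 44 were lower under LL in ALC::TOC1 and 43 were higher under LL in wild type, and 12 were called in opposite directions in the lines. Of the 43 positive ones, 17 were higher in ALC::TOC1, 33 were lower in wild type, and 7 had opposite calls. The count depended on single wild-type and ALC::TOC1 libraries. It was 70, 62 and 71 without ALC::TOC1 LL array 1, 2 and 3, and 55, 59 and 80 without ALC::TOC1 LD array 1, 2 and 3. It was 62, 53 and 545 without wild-type LL array 1, 2 and 3, and 112, 132 and 56 without wild-type LD array 1, 2 and 3. The GAPDH 3' minus 5' difference averaged 1.06 in ALC::TOC1 LL and 0.894 in ALC::TOC1 LD arrays, against 1.45 in wild-type LL and 1.09 in wild-type LD arrays. With that difference as a covariate the count was 85. In wild type the 3' minus 5' difference was higher in LL than in LD by 0.362 for GAPDH, 0.183 for ubiquitin and 0.128 for actin. The two-sided exact permutation p was 0.1, 0.1 and 0.5 (adjusted p = 0.3, 0.3 and 0.5 over the 6 tests).

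Low-oxygen genes were among those in which the uninduced line and the wild type differed. These are genes that plants switch on when oxygen falls short, as under water. In ALC::TOC1, 2 of 13 measured genes were higher and 4 were lower under LL, with a median of -0.31, whereas in wild type 6 were higher and 1 was lower, with a median of 0.01, beside 11.6% and 13.2% of named genes higher and lower in wild type. Without LL array 3, 1 was higher in ALC::TOC1. The interaction passed for 4 of the 13, all negative, where 0.27% of named genes had a negative and 0.195% a positive one. AT4G10270, on the low-oxygen list, had levels of 5.2, 5.98 and 6.21 in ALC::TOC1 LL and 4.23, 4.53 and 4.19 in ALC::TOC1 LD, against 8.44, 8.78 and 8.93 in wild-type LL and 4.17, 4.13 and 3.74 in wild-type LD. LD levels were alike in the lines while LL levels were far lower in ALC::TOC1, and the interaction was -3.22 ± 0.59 (SE, adjusted p = 0.0128). Its own light difference in ALC::TOC1, 1.48 ± 0.42 (SE, adjusted p = 0.0127), lost its call without LL array 3 (adjusted p = 0.0664).

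AT3G10040, which RefSeq lists as HRA1, an attenuator of the low-oxygen response, had levels of 4.22, 4.91 and 4.82 in ALC::TOC1 LL and 5.3, 5.58 and 4.84 in ALC::TOC1 LD, against 6.35, 7.28 and 7.55 in wild-type LL and 4.94, 4.65 and 4.56 in wild-type LD. Its light difference was -0.59 in ALC::TOC1 (adjusted p = 0.305) and 2.34 in wild type, and the interaction was -2.93 ± 0.56 (SE, adjusted p = 0.0182). AT1G33055 averaged 6.82 ± 0.48 in ALC::TOC1 LL and 7.12 ± 0.2 in ALC::TOC1 LD, against 8.91 ± 0.31 in wild-type LL and 6.88 ± 0.23 in wild-type LD (SD, n = 3 each), with an interaction of -2.34 ± 0.45 (SE, adjusted p = 0.019). AT4G24110 was the fourth, with an interaction of -1.54 ± 0.35 (SE, adjusted p = 0.0448). These 4 interactions passed in 12, 7, 8 and 2 of the 12 fits that each left out 1 mock array.

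The falls on the low-oxygen list in ALC::TOC1 were in other genes. AT5G10040 had levels of 4.34, 4.08 and 4.02 in LL, against 7.2, 6.66 and 6.61 in LD, a difference of -2.67 ± 0.53 (SE, adjusted p = 0.000874), and AT4G27450 and AT3G03270 differed by -1.66 and -1.46 (adjusted p = 2.1e-05 and 0.00012). AT1G19530 fell by 0.82 on the log2 scale (adjusted p = 0.0107). For these 4 genes the interaction did not pass, with values from -1.71 to 0.05. PDC2, a pyruvate decarboxylase of fermentation, differed by -0.29 in ALC::TOC1 (adjusted p = 0.162) and by 0.54 in wild type, and the interaction did not pass (-0.83, adjusted p = 0.0736).

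**Figure D5:**
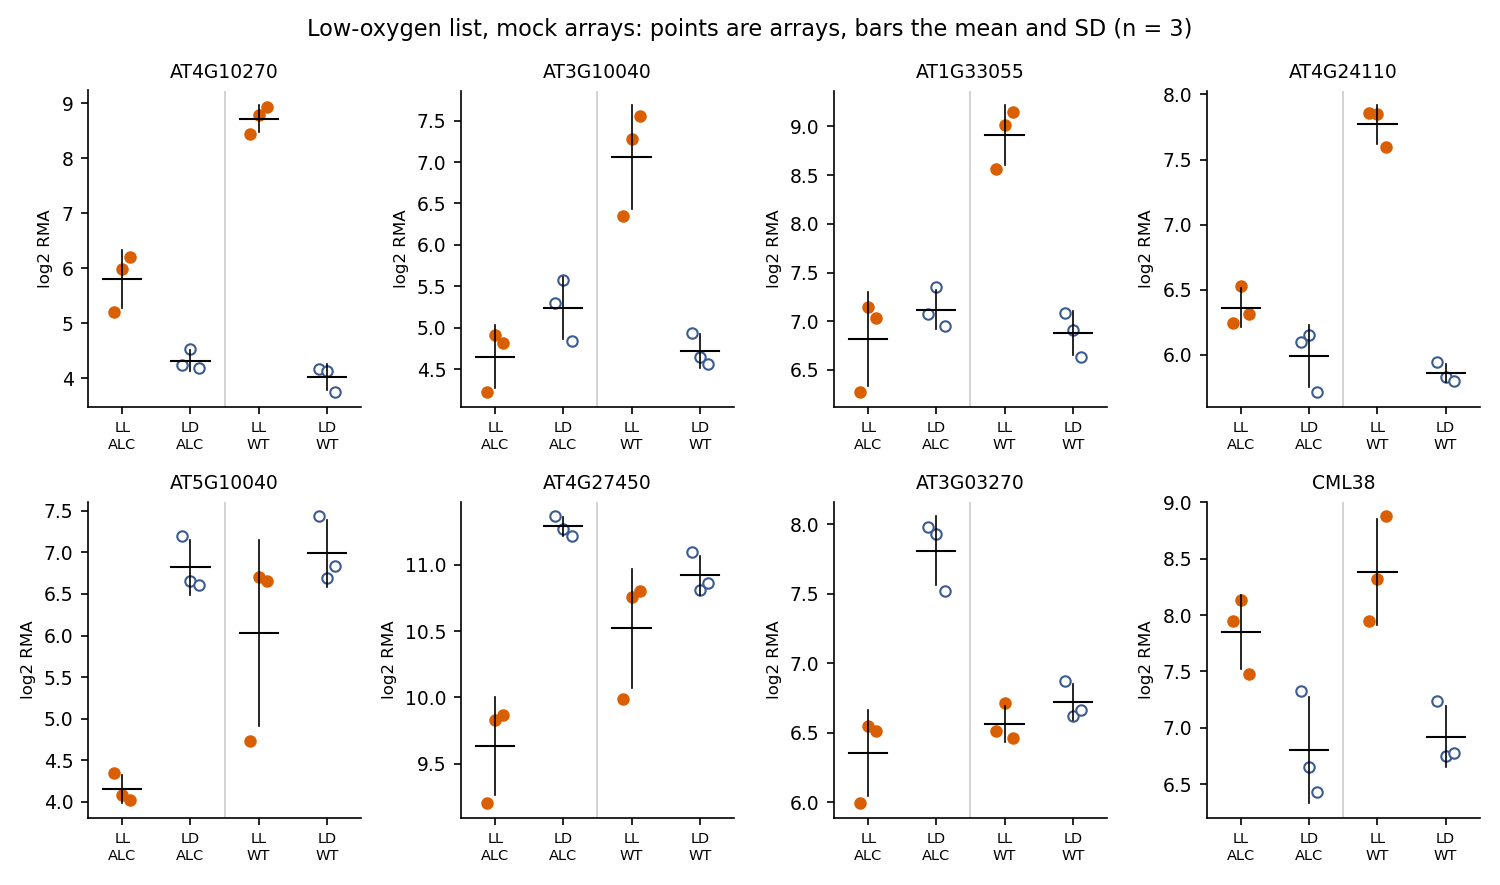
Levels (log2 RMA) of 8 low-oxygen genes in the mock arrays, in the order ALC::TOC1 LL, ALC::TOC1 LD, wild-type LL and wild-type LD; points are arrays and bars the mean and SD of 3. In the top row, where the interaction passed, the wild-type LL arrays stand above all other groups.

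Outside the low-oxygen list, AT2G32150 changed with light in ALC::TOC1 and did not pass in wild type. It had levels of 11.13, 11.02 and 11.13 in ALC::TOC1 LL and 9.84, 9.22 and 9.74 in ALC::TOC1 LD, against 11.24, 11.61 and 12.18 in wild-type LL and 12.2, 11.34 and 11.85 in wild-type LD. The 3 ALC::TOC1 LD arrays were the lowest of the 12, and the interaction was 1.61 ± 0.31 (SE, adjusted p = 0.019). UGT73B5, lower under LL in ALC::TOC1, averaged 8.36 ± 0.35 in wild-type LL and 8.5 ± 0.39 in wild-type LD (SD, n = 3 each), and its interaction was -1.65 ± 0.31 (SE, adjusted p = 0.0145). CCL rose more in ALC::TOC1 (2.31) than in wild type (1.07), with an interaction of 1.24 ± 0.26 (SE, adjusted p = 0.031). TOPII rose less, by 1.1 in ALC::TOC1 and 2.55 in wild type (-1.45 ± 0.33 SE, adjusted p = 0.0475). Plastid-encoded genes had a median light difference of -0.17 in ALC::TOC1 and 0.27 in wild type, where 12 of 69 were higher and 0 lower, but none passed the interaction test.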

How the data were processed

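Total RNA of seedlings was read on Affymetrix ATH1 arrays, 24 in all, in 8 groups of 3. The authors deposited log2 values, 1 per probe set and array, computed with RMA in affy, per the submitters' processing notes (no version given). RMA subtracts background, normalises by quantiles and summarises probes, so dim levels are uncertain and an equal shift of most transcripts would be removed. Arrays give no read depth, and 3 arrays per group limit the precision.

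All 24 arrays were fitted together in limma 3.58.1 (R 4.3.3) with a mean per group (16 residual and 4.87 prior degrees of freedom) and p-values adjusted over 22746 probe sets, after 64 controls were left out. Genes were named from GEO's platform annotation and RefSeq (TAIR10.1): 13513 probe sets had 1 name, 503 several and 8730 none, and 13436 matched RefSeq. Where a gene had more than 1 probe set, the one with the highest mean over all arrays stood for it. In simulated data for this comparison, 46% of changes of 0.5 log2 and 94% of changes of 1 were recovered, with 5 false calls. The simulation used independent noise and changed far fewer probe sets than were called in the data, so these rates need not hold for the real arrays. Named genes are the clock genes, the 12 largest rises and falls among called genes with non-overlapping arrays, up to 4 called genes of smallest adjusted p per list with at least 3 measured members, and the 5 largest interactions in each direction. HYH, EXPB3, BUB3.1, AUR3, ATSPS4F, UGT71C3, UGT73B4, UGT73C1, AT1G19530, AT1G53540, AT4G24110, AT5G48940, AT5G66390 and PDC2 were named after their values were seen.

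The comparison, the members and the 22 gene lists (862 entries, 182 measured, 19 lists with at least 3) were chosen with earlier results of these data known, and 17 more lists of gene families were composed after the data were seen. After their values were seen, AT4G38890 (a rise of 0.69) was taken off the ribosome list, since its role was not certain, and CKS (-0.13, not called) off the mitosis list, since the symbol names another enzyme. The labels do not say whether replicate numbers pair the samples. Same-numbered LL and LD arrays correlated in their deviations at -0.0482 to 0.0947, and other-numbered ones at -0.13 to 0.0442. With 3 arrays per group these values cannot decide on pairing, and the main fit left it out. Alternatives were a filter on dim probe sets, repeated quantile normalisation, median centring, trended robust eBayes, array weights, fits of the compared arrays with and without a replicate block, a 2-fold minimum, each array left out and, chosen after seeing the data, GAPDH degradation as a covariate. Promoter sequences were not used here.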

Additional observations from a re-analysis of the deposited data

Results flagged for a closer look

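The light difference under mock treatment passed a test of its difference between ALC::TOC1 and wild type, the interaction in limma, in 14 of the genes named above, and each stands here for that reason. Values are the ALC::TOC1 light difference less the wild-type one, on the log2 scale. The 5 largest negative ones were AT4G10270 at -3.22, AT3G10040 at -2.93, AT1G33055 at -2.34, AT5G66985 at -2.28 and AT2G18370 at -1.92. AT4G24110, UGT73B5 and TOPII stood at -1.54, -1.65 and -1.45. The positive ones were AT3G21670, listed in RefSeq as NPF6.4 of the nitrate transporter family, at 1.82, AT2G32150 at 1.61, AT5G01790 at 1.46, AT5G57655 at 1.44, AT4G38690 at 1.36 and CCL at 1.24.

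AT5G66985 averaged 6.1 ± 0.4 in ALC::TOC1 LL and 5.04 ± 0.05 in ALC::TOC1 LD, against 8.57 ± 0.5 in wild-type LL and 5.22 ± 0.57 in wild-type LD (SD, n = 3 each). Its rise in ALC::TOC1 lost its call without LL array 3 (adjusted p = 0.0607). AT4G38690 was called in opposite directions, with 6.68 ± 0.12 in ALC::TOC1 LL and 6.03 ± 0.12 in ALC::TOC1 LD, against 6.13 ± 0.27 in wild-type LL and 6.84 ± 0.26 in wild-type LD (SD, n = 3 each). In AT3G21670, AT5G01790, AT5G57655 and AT2G18370 the light difference did not pass in ALC::TOC1 (0.11, -0.15, -0.07 and -0.07) and passed in wild type (-1.71, -1.61, -1.51 and 1.84).

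Of these interactions, AT4G10270 and UGT73B5 passed in each of the 20 alternatives run for them, with adjusted p up to 0.0458 and 0.0488. AT5G66985 and AT5G01790 passed whichever of the 12 mock arrays was left out. TOPII passed in 1 of those 12 fits, AT5G57655, AT4G38690 and AT4G24110 in 2, AT3G21670 in 3 and AT2G18370 in 4. CCL passed in 6, AT3G10040 in 7, and AT1G33055 and AT2G32150 in 8. Whether the higher GAPDH 3' minus 5' difference of the wild-type LL arrays has a part in these interactions was not tested beyond the covariate, with which AT2G18370, AT3G21670, AT4G24110, AT4G38690, AT5G57655 and TOPII no longer passed.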

How the results depend on the processing

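The 5489 probe sets called between LL and LD in ALC::TOC1 mock stayed within 1.5 times under every alternative but 1, between 3766 (without LD array 2) and 7307 (array weights). The exception, a minimum of 2-fold, left 812, and likewise 1103 in wild type and 717 in ethanol-treated ALC::TOC1. The interaction count of 118 became 1381 with array weights (49.4% positive, against 36.4% in the fit reported), 76 with a 2-fold minimum, and 53 to 545 when 1 array was left out. The replicate block was tried although the labels do not say whether the numbers pair the samples. It gave 6531 calls for the light difference and 47 (17.0% positive) for the interaction. Of 155 named genes, 108 kept direction and side of the threshold throughout. Signs turned in genes that were not called: AT5G57655 stood at 0.06 with the GAPDH covariate, AT3G21670 ranged from -0.16 (without LD array 2) to 0.35 when 1 array was left out, and AT2G18370 from -0.26 to 0.11 (without LL array 1), with 0.1 without LD array 3. The cause was not tested. No array measure here separates signal from background, so the size of differences at low levels is uncertain.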
